A study of Mus musculus with 16 samples.

Results

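The 42 genes described here code for proteins that build ribosomes in the nucleolus. They were chosen by name from the 24421 genes of the tables keyed by symbol. No cut on measured values was used, but earlier results of these data were known. All 42 were in every table and passed the filter on low counts in every fit. They fall into 6 roles: 3 subunits of RNA polymerase I, 5 nucleolar scaffold or RNA-binding proteins, 4 proteins of the box C/D and 3 of the box H/ACA small nucleolar ribonucleoproteins (snoRNPs), 12 factors of small subunit (40S) assembly and 15 of large subunit (60S) assembly.

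RNA polymerase I transcribes the long precursor of the ribosomal RNAs in the nucleolus. The box C/D and H/ACA snoRNPs then methylate and pseudouridylate the precursor, and the small subunit processome and the 60S factors cleave and fold it while ribosomal proteins join. The transcription factor Myc is known to drive many of these genes, and their output limits how fast a growing cell can make protein.

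Polyadenylated RNA was sequenced from 16 libraries of C57BL/6 mouse organoids, which are cell cultures grown in 3 dimensions. Genotype TMP lacks Trp53 (Trp53-/-) and carries Myc and a guide against Cdkn2a (sgCdkn2a); its tumour libraries are titled Ctr (n = 3) or Lung-Ctr (n = 2). Genotype TMPL has the same alleles and adds LMP1, the oncoprotein that Epstein-Barr virus places in the cell membrane; its libraries are titled LMP1 (n = 2) or Lung-LMP1 (n = 3). All 10 tumour libraries therefore share the Trp53 loss, the Myc gene and the Cdkn2a guide. Normal tissue gave Normal_nasopha (nasopharynx, n = 3) and Normal_lung (lung, n = 3). The labels disagree on which tumour organoids are primary and which metastatic, so titles name the groups here, and nothing is read from the Lung prefix about where cells grew. Whether libraries of a group came from separate animals or cultures is not in the labels. The p-values therefore cover the spread between these libraries, which may be technical.

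Total counts per library ran from 12535166 to 21737184. Epithelial markers were present in every group, but their summed level was 913.3 to 1379 CPM (a gene's share of its library's total, scaled alike in all libraries) in LMP1 against 2821 to 4969 CPM in Ctr, 4904 to 5989 CPM for Lung-Ctr and 5262 to 5641 CPM for Lung-LMP1. The summed level of 9 fibroblast and stroma markers was 1644 to 2052 CPM in LMP1, 3.011 to 571.1 CPM in Ctr, and at most 23.98 CPM in the Lung-prefixed tumour groups. Vim (1350.29 and 1017.296 CPM) and Fn1 (618.247 and 585.545 CPM) made up most of the LMP1 sum. Col1a1, Col1a2, Lum and Pdgfra were at most 1.66 CPM there. Col3a1 was at 60.828 and 24.764 CPM in LMP1 and 95.212 CPM in Ctr replicate 2. Both LMP1 libraries thus stood apart from the other tumour libraries in the summed epithelial and stroma levels, but not in every marker. Krt8 was at 294.788 and 416.053 CPM in LMP1 and 353.744, 476.852 and 321.549 CPM in Ctr, and Krt18 overlapped as well. Of the 9 epithelial markers, 7 were called lower in LMP1 against Ctr and 0 higher (edgeR adjusted p under 0.05). The median log2 fold change of the 9 was -3.4, and 9.06% of all genes were called lower. Trp63 was at 2.601 and 1.962 CPM in LMP1 and 156.861, 59.994 and 336.228 CPM in Ctr. For Vim, Ctr replicate 2 lay between, at 372.71 CPM against 0.147 and 1.739 CPM in the other Ctr libraries. In bulk libraries, fewer cells of a type and less RNA per cell cannot be told apart. The 3 normal columns set beside Ctr are headed as normal lung in a table named for nasopharynx. They are called the normal comparator. Across 22513 genes each comparator column correlated at 0.9808 to 0.982 with the same-numbered Normal_nasopha library. Correlations were 0.9429 to 0.9553 with the other Normal_nasopha libraries and 0.8831 to 0.8898 with the Normal_lung libraries. The columns thus match the Normal_nasopha libraries number by number, and the comparator and Normal_nasopha are not taken as independent controls.

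Sequence upstream of the leading genes is shown first, because these genes had the largest called differences between genotypes. For the 3 genes of largest called fold between genotypes that have a window in RefSeq (build GRCm38.p6), the 250 bases before the transcription start are printed 5′ to 3′, with matches to any of the 6 motifs listed below in capitals. They are Rrp9 at chr9:106477059-106477308 on the plus strand, Nhp2 at chr11:51619523-51619772 on the plus strand, Nolc1 at chr19:46075597-46075846 on the plus strand. Rrp9 is a box C/D protein bound to the U3 snoRNA, Nhp2 is a core protein of the box H/ACA snoRNPs, and Nolc1 is a nucleolar phosphoprotein that binds snoRNPs.
Rrp9: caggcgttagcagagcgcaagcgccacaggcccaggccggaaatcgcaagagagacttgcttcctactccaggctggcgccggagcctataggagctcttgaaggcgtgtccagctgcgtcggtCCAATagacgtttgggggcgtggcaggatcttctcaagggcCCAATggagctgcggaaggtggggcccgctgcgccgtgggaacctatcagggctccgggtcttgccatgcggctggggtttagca
Nhp2: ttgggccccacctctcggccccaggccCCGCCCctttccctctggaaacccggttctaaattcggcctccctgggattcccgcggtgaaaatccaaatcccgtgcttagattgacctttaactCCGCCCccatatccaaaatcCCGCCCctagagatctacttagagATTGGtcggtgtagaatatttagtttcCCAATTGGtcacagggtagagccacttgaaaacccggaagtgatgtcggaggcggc
Nolc1: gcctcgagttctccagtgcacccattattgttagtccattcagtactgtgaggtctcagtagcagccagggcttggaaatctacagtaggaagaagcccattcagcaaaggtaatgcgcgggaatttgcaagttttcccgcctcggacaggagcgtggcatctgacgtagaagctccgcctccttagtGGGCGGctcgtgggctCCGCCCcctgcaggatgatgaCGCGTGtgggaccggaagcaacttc

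The windows of Rrp9 and Nhp2 held CCAAT, those of Nhp2 and Nolc1 the GC box GGGCGG, and that of Nolc1 also CACGCG. No CACGTG, the E-box sequence that Myc binds with Max, stood before the start in any of the 7 leading genes with a window. The 7 were Rrp9, Nhp2, Nolc1, Gar1, Ppan, Pes1 and Polr1a, and Pes1 held CACGTG from base 3 after its start. RefSeq windows of 300 bases (250 before to 50 after a start) were matched for 37 of the 42 genes, in 41 windows, and CACGTG was in 8 of these, 19.5%, against 7.15% of all 32851 windows. Each site is shown with up to 12 bases on either side, the motif in capitals.
Imp4: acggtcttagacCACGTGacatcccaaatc
Nop2: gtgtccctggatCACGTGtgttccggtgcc
Grwd1: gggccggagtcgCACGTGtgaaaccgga
Utp20: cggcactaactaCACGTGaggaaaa
Pes1: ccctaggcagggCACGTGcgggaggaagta
Mybbp1a: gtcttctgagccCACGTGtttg
Tsr1: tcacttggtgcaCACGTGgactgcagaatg
Wdr43: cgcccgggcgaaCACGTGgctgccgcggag

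These sites lie in Imp4 at chr1:34439696-34439725 (plus strand), Nop2 at chr6:125131811-125131840 (plus strand), Grwd1 at chr7:45830740-45830767 (minus strand), Utp20 at chr10:88826765-88826789 (minus strand), Pes1 at chr11:3963965-3963994 (plus strand), Mybbp1a at chr11:72441355-72441376 (plus strand), Tsr1 at chr11:74898092-74898121 (plus strand), Wdr43 at chr17:71616220-71616249 (plus strand). Those of Imp4 and Nop2 begin 121 and 60 bases before the start, and the other 6 lie after it. In TMPL against TMP, 1 of the 8 genes with CACGTG was called, with a median log2 fold change of 0.64. Of the 29 without CACGTG, 9 were called, with a median of 0.57, against 12.4% of all genes. In LMP1 against Ctr these were 1 of 8 (median 0.47) and 4 of 29 (median 0.51), against 16.4% of all genes. All 6 motifs were searched on both strands, and none of the matches overlapped a match to another motif. CACGCG was in 29.3% of the 41 windows and 9.27% of all windows, and GGGCGG in 70.7% and 35.7%. CCAAT was in 26.8% and 37.4%, the CGCG palindrome bound by Kaiso in 0 and 0.466%, and the site of the factor Znf143 in 2.44% and 0.286%. The 41 windows also had a higher GC content, with a median of 59.3% against 52.7%, which was not adjusted for. A match describes the letters only.

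The 42 genes moved largely as a block across the tumour libraries. Together they took 0.6163, 0.9602 and 1.032% of all counts in Ctr replicates 1 to 3, and 1.159 and 1.258% in LMP1. Lung-Ctr had 0.7036 and 0.6595%. Lung-LMP1 had 1.452, 0.7174 and 1.027%. Replicates therefore differed widely: Lung-LMP1 replicate 1 was the highest tumour library for 27 of the 42 genes and Ctr replicate 1 the lowest for 29. In Lung-LMP1 replicate 2, 0 of 42 genes were above their tumour mean, and that library lay beside the Lung-Ctr libraries. Across the 10 tumour libraries each gene's log2 CPM correlated with the median of the others at a median r of 0.936, and 40 of 42 were over 0.7. This r is a description over 10 libraries that share depth and composition. Rcl1, a 40S processing factor, had the lowest r, 0.3391, and was at 178.7 CPM in Lung-Ctr replicate 2 and 36.49 CPM in replicate 1. Among the 42 genes, Polr1c varied least, 1.63-fold from lowest to highest tumour library, and Rrp12 most, 8.15-fold.

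**Figure D1:**
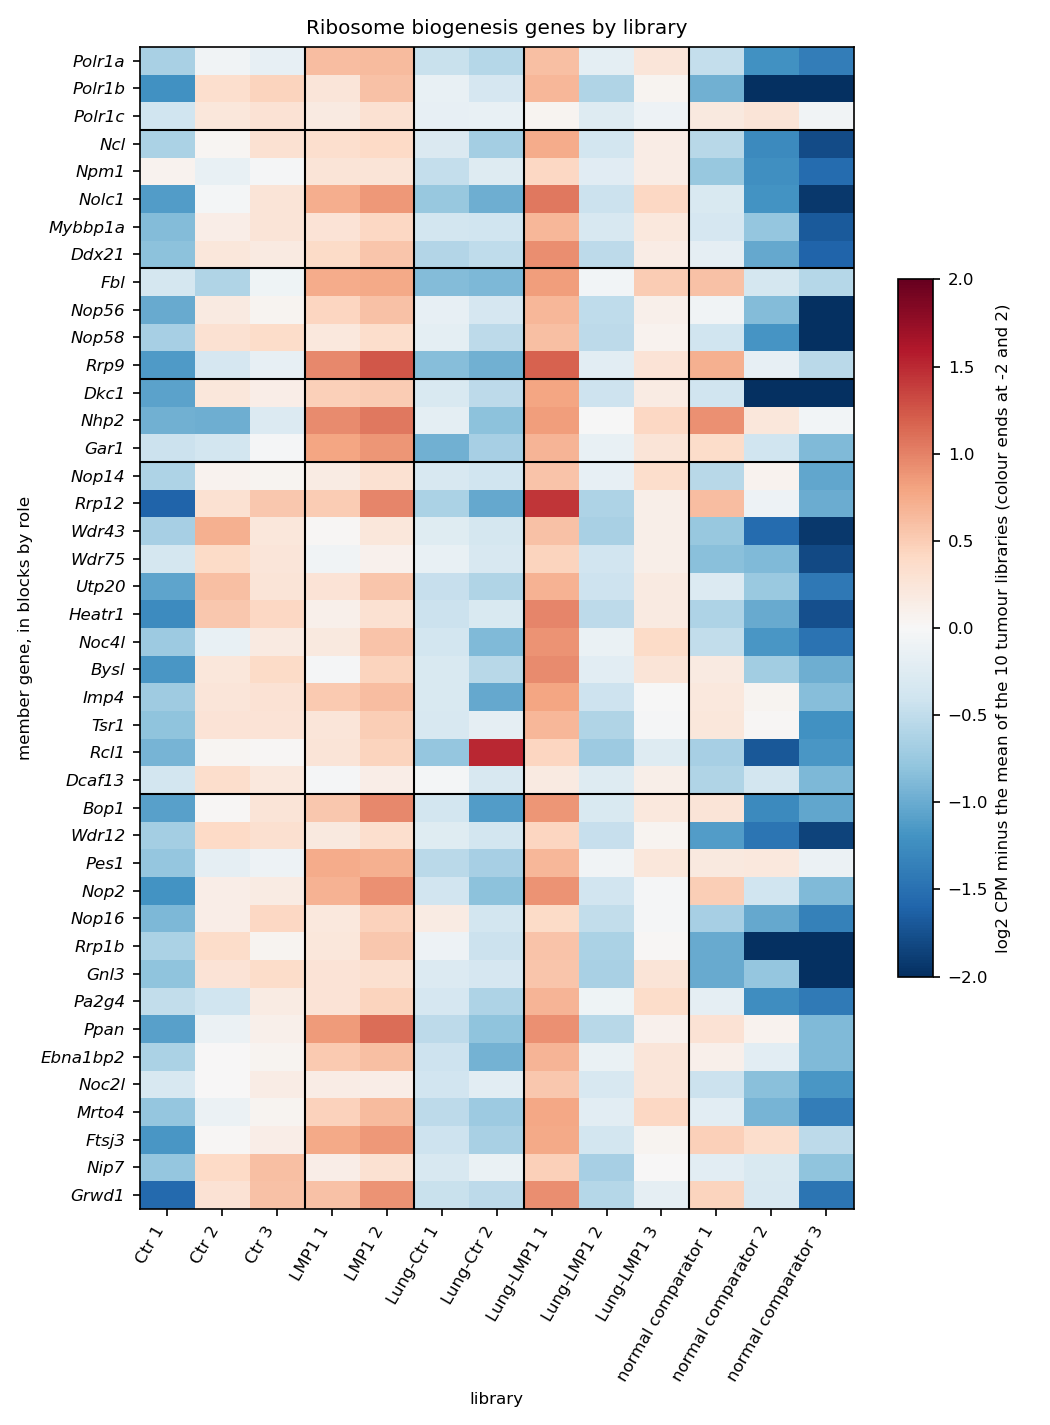
Log2 CPM of each of the 42 genes (rows, in blocks by role) in the 10 tumour libraries and the 3 normal comparator columns, minus the gene's mean over the tumour libraries. Ctr replicate 1 and both Lung-Ctr libraries are mostly blue (lower), LMP1 and Lung-LMP1 replicate 1 mostly red (higher), and Lung-LMP1 replicate 2 is the low library of its group.

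LMP1 against Ctr compares TMPL with TMP in libraries without the Lung prefix. Of the 42 genes, 6 rose and 0 fell in LMP1 (edgeR quasi-likelihood test, adjusted p under 0.05), while 16.4% of all 13460 genes tested were called, 7.36% higher and 9.06% lower. The share of the 42 called was thus close to the background. Of the 42 fold changes 39 were positive, with a median log2 fold change of 0.53 against -0.01 for all genes. Because these genes moved largely as a block, the counts of signs here and below do not stand for independent observations. The CPM ranges of the groups did not overlap for 25 genes, all higher in LMP1, against 29.4% of all genes higher and 26.9% lower.

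Among polymerase subunits, Polr1a, the largest catalytic subunit, was at 113.8, 169.9 and 159.3 CPM in Ctr and 274.3 and 277.3 CPM in LMP1. Both LMP1 libraries were above all Ctr libraries, and it rose by a log2 fold change of 0.88 (SE 0.245, edgeR adjusted p = 0.04195). Polr1b, the second-largest subunit, had a log2 fold change of 0.38 (SE 0.4862), with Ctr replicate 1 at 50.89 CPM and the other two Ctr libraries at 148.9 and 160.1 CPM. It did not pass the test.

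The snoRNP proteins held 4 of the 6 genes called. Nhp2 was at 37.82, 37.6 and 60.87 CPM in Ctr and 141.7 and 153.9 CPM in LMP1, with no overlap. Its log2 fold change was 1.68 (SE 0.318, edgeR adjusted p = 0.01296), the largest of the 42. Rrp9 was at 18.87, 33.06 and 36.87 CPM in Ctr and 80.53 and 98.58 CPM in LMP1, a log2 fold change of 1.57 (SE 0.4102, edgeR adjusted p = 0.03377). Gar1, another H/ACA core protein, rose from between 22.84 and 30.12 CPM to 53.08 and 56.77 CPM, a log2 fold change of 1.08 (SE 0.2599, edgeR adjusted p = 0.02671). Fbl, the methyltransferase of the box C/D snoRNP, rose from 104.9, 88.73 and 126.8 CPM to 223.7 and 227.7 CPM, a log2 fold change of 1.05 (SE 0.2532, edgeR adjusted p = 0.02658). Their partners Nop56 and Dkc1, the pseudouridine synthase, had log2 fold changes of 0.66 and 0.60 and did not pass.

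In large subunit assembly, Pes1, of the PeBoW complex, was the 1 gene of 15 called. It was at 67.93, 102.4 and 108 CPM in Ctr and 194.9 and 190.5 CPM in LMP1, a log2 fold change of 1.03 (SE 0.2564, edgeR adjusted p = 0.02958). Its PeBoW partner Bop1 had 0.90 (SE 0.4513), which did not pass. None of the 12 genes of 40S assembly and none of the 5 scaffold genes were called. Heatr1, a processome scaffold, had 0.09 (SE 0.5349). The abundant scaffold proteins Ncl and Npm1 had 0.39 (SE 0.349) and 0.27 (SE 0.1919).

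Calls fell across the whole table when a library was left out. Without LMP1 replicate 1 or 2, 0 of the 42 were called, with 0.178% and 0.897% of all genes called and the lone LMP1 library assumed to vary like the other groups. The medians of the 42 were then 0.60 and 0.39. Without Ctr replicate 1, 2 or 3, 1, 2 and 5 of the 42 were called, against 12.5%, 14.3% and 10.8% of all genes. Without Ctr replicate 1 the median of the 42 was 0.27, with 30 positive. After a correction of each library for its trend with transcript length and GC content, 1 was called, Nhp2, against 7.47% of all genes, while the median stayed at 0.53. Fold changes of the 42 genes rose with transcript GC content, with a rank correlation of 0.617 over 42 genes, against 0.362 over 13009 genes. The part of GC content or of the lineage marker differences in the 6 calls was not tested further.

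**Figure D2:**
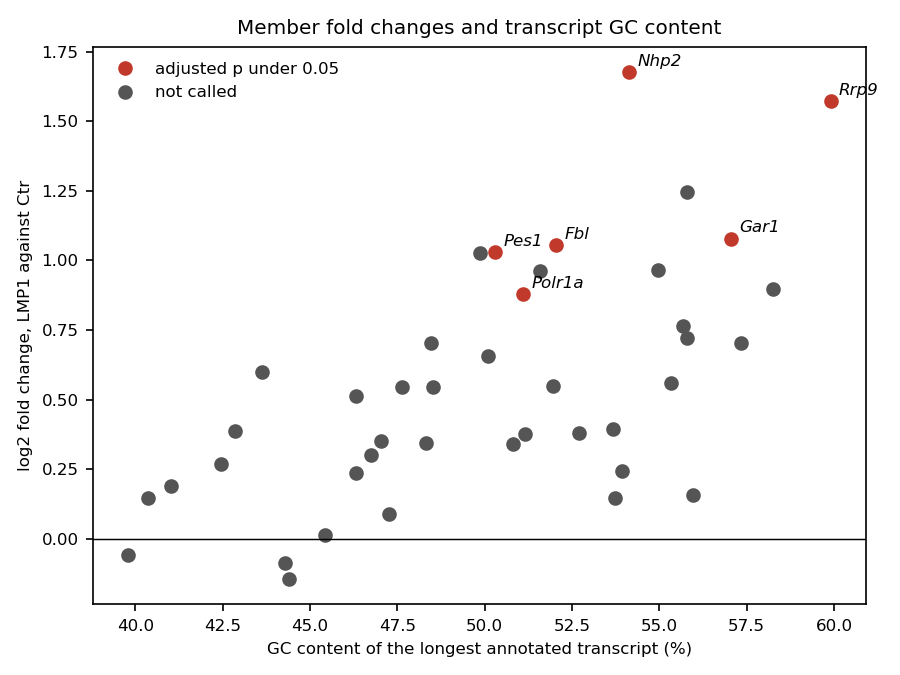
Log2 fold change of LMP1 against Ctr (vertical axis) for each of the 42 genes against the GC content in percent of its longest annotated transcript. The 6 genes called (red) have a GC content above 50%, and fold changes tend to rise with GC content (rank correlation 0.617), with genes off the trend on both sides.

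Lung-LMP1 against Lung-Ctr repeats the genotype comparison in the Lung-prefixed libraries, which hold few stromal marker counts. No gene of the 42 was called, and neither was any gene of the whole table (0.0% of 13460). At an unadjusted p under 0.05 there were 14 of the 42 and 2295 of all genes, and DESeq2 called 6.91% of all genes and 7 of the 42: Ebna1bp2, Fbl, Gar1, Mrto4, Nolc1, Pes1 and Rrp9. Of 42 fold changes 41 were positive, with a median of 0.77 against -0.04 for all genes. The exception was Rcl1, at -0.82, with 36.49 CPM in Lung-Ctr replicate 1 and 178.7 CPM in replicate 2. For 19 genes the CPM ranges did not overlap, all higher in Lung-LMP1, against 15.1% of all genes higher and 18.4% lower.

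Fbl was at 73.88 and 72.08 CPM in Lung-Ctr and 239.8, 129.4 and 190.8 CPM in Lung-LMP1. All 3 Lung-LMP1 libraries were above both Lung-Ctr libraries, with a log2 fold change of 1.41 (SE 0.2697, edgeR adjusted p = 0.109). Gar1 was at 15.81 and 19.4 CPM against 49.09, 27.6 and 36.94 CPM, with 1.16 (SE 0.2746, edgeR adjusted p = 0.1234). Pes1 was at 80.43 and 73.14 CPM against 185, 110.6 and 136.6 CPM, with 0.97 (SE 0.2681, edgeR adjusted p = 0.1473). In each of these the lowest Lung-LMP1 library was replicate 2. Ncl, Npm1, Nop56, Polr1b, Bop1, Dkc1 and Heatr1 had log2 fold changes of 0.78, 0.56, 0.47, 0.42, 1.10, 0.73 and 0.77, none of which passed.

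The genotype difference itself did not differ detectably between titles with and without the Lung prefix. The interaction called 0 of 42 genes and 0.892% of all genes, 0.81% higher and 0.0817% lower. At an unadjusted p under 0.05 there were 0 of the 42 and 2105 of all genes, and DESeq2 called 0 of the 42 and 6.9% of all genes. The smallest interaction p among the 42 was that of Rcl1, at -1.37 (SE 0.8468, edgeR adjusted p = 0.48), followed by Nhp2, at -0.69 (SE 0.4521, edgeR adjusted p = 0.508), and Wdr75, at 0.53 (SE 0.3928, edgeR adjusted p = 0.5698). With 2 or 3 libraries a group, this leaves wide room for a difference.

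**Figure D3:**
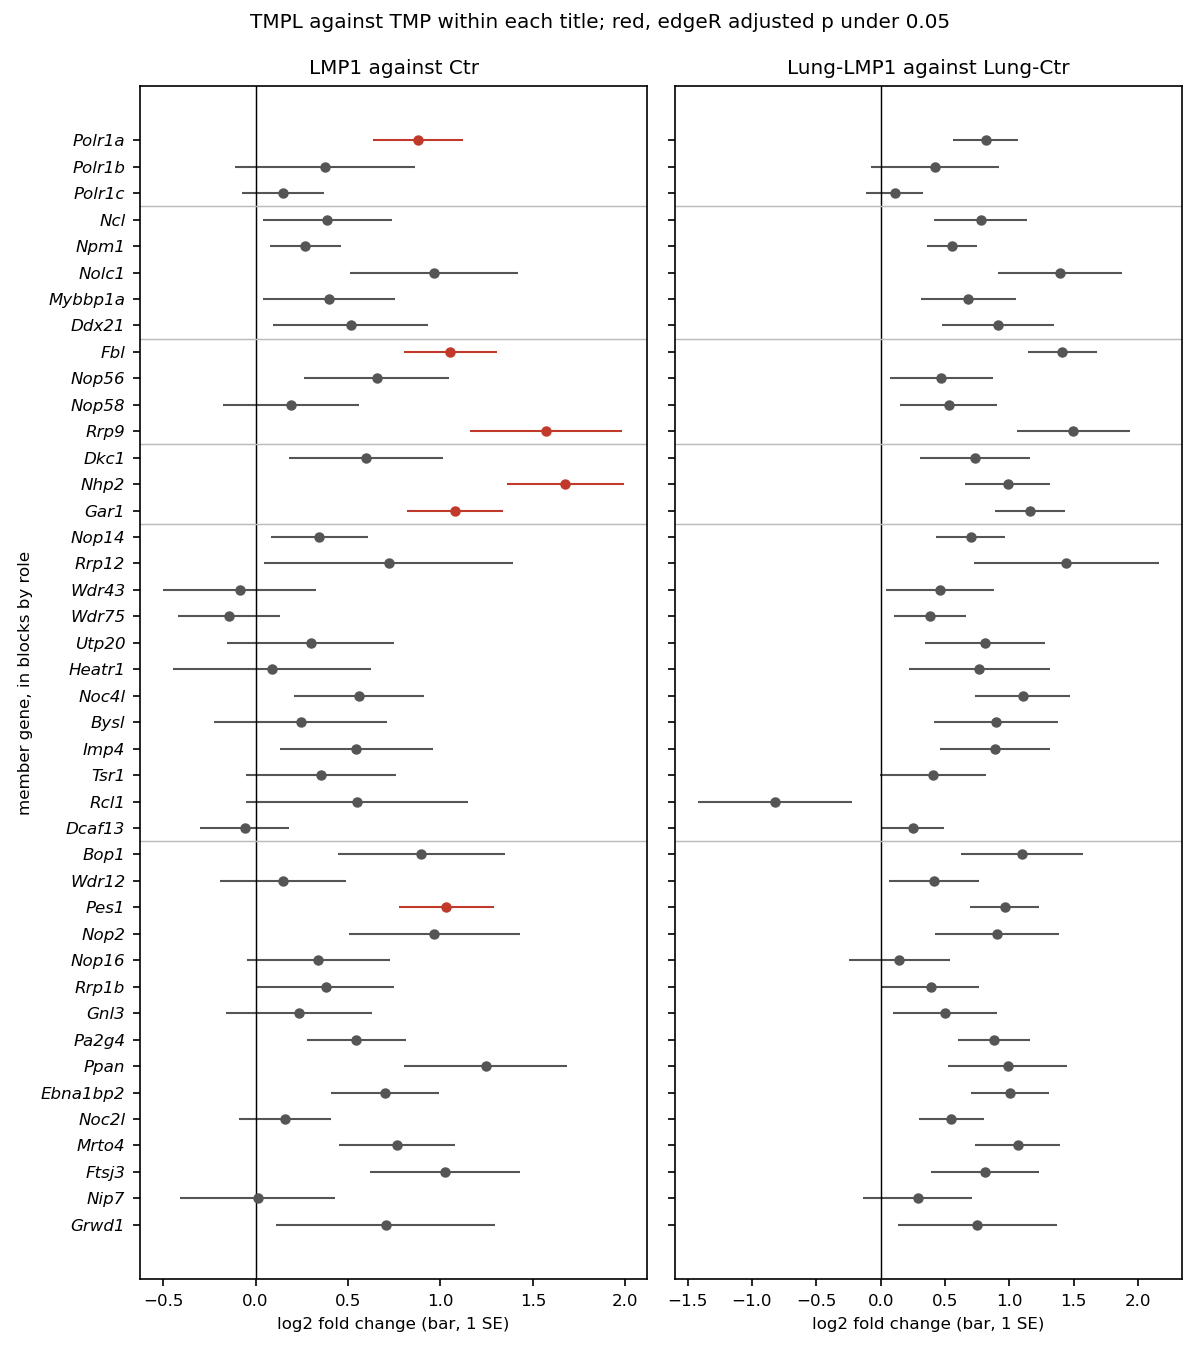
Log2 fold change of the 42 genes (rows, in blocks by role) for LMP1 against Ctr (left) and Lung-LMP1 against Lung-Ctr (right), each point with a bar of 1 SE, red where the edgeR adjusted p was under 0.05. Most points lie right of 0 in both panels, 6 are red on the left and none on the right, and Rcl1 lies left of 0 on the right panel.

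With both titles in a single fit, TMPL against TMP called 11 of the 42 genes higher and 0 lower, against 7.22% of all genes higher, 5.13% lower and 12.4% in either direction. Of the 42 fold changes 41 were positive, with a median of 0.58 against -0.05 for all genes. The largest were Rrp9 at 1.53 (SE 0.2868, edgeR adjusted p = 0.01197), Nhp2 at 1.33 (SE 0.2453, edgeR adjusted p = 0.01141), Fbl at 1.23 (SE 0.1885, edgeR adjusted p = 0.00686), Nolc1 at 1.18 (SE 0.3306, edgeR adjusted p = 0.04716), Gar1 at 1.12 (SE 0.1814, edgeR adjusted p = 0.007953) and Ppan, a 60S factor, at 1.12 (SE 0.3069, edgeR adjusted p = 0.04369). Pes1, Mrto4, Ebna1bp2 and Pa2g4, all of 60S assembly, and Polr1a were the others called.

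By role, 5 of 15 genes of 60S assembly, 2 of 4 of the box C/D and 2 of 3 of the box H/ACA snoRNPs, 1 of 3 polymerase subunits, 1 of 5 scaffold genes and 0 of 12 genes of 40S assembly rose. The CPM ranges of all TMPL and all TMP libraries were apart for 3 genes, Fbl, Nhp2 and Pes1, all higher, against 4.78% of all genes higher and 5.1% lower. For Fbl the lowest TMPL library was Lung-LMP1 replicate 2, at 129.4 CPM, just above the highest TMP library, Ctr replicate 3, at 126.8 CPM. The calls of the 42 and of all genes were 2 and 1.87% without LMP1 replicate 2, and 5 and 3.03% without LMP1 replicate 1. They were 6 and 9.82% without Ctr replicate 1, 6 and 10.4% without Lung-Ctr replicate 2, 6 and 8.75% without Lung-LMP1 replicate 3, and 7 and 7.73% without Ctr replicate 2. After the length and GC correction they were 7 and 5.07%. Rrp9, Nolc1, Ppan, Mrto4 and Pa2g4 lost their call there, and Npm1 gained one. Fold changes rose with transcript GC content here too, with a rank correlation of 0.557 over the 42 genes and 0.337 over 13009 genes. The median of the 42 was 0.42 to 0.71 over the libraries left out.

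Genes of the same pathway outside the 42 were read from lists. In TMPL against TMP, 7.22% of all genes were called higher and 5.13% lower. In the lists, 3 of 12 RNA polymerase I genes, 8 of 38 of small subunit assembly and 3 of 42 of 60S assembly rose. So did 2 of 11 of snoRNP assembly and 3 of 14 of the nuclear exosome, and none in these 5 lists fell. Their median log2 fold changes were 0.32, 0.47, 0.41, 0.23 and 0.32. Those of smallest p included Nop10, another core protein of the H/ACA snoRNP, at 1.63 (SE 0.2128), and Ubtf, the polymerase I activator, at 1.11 (SE 0.2008). Of 15 proliferation genes 1 rose, Plk1, and 1 fell, Bub1, with a median of 0.28.

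Changes with the Lung prefix were small beside the spread. Lung-Ctr against Ctr called 0 of the 42 genes and 0.0% of all genes. At an unadjusted p under 0.05 there were 0 of the 42 and 717 of all genes, and DESeq2 called 0 of the 42 and 0.305% of all genes. Of the 42, 40 had a negative fold change, with a median of -0.33. Fbl had -0.50 (SE 0.2609), Gar1 -0.48 (SE 0.2687) and Rcl1 1.06 (SE 0.5974). Without Lung-Ctr replicate 2, Rcl1 was at -0.502. The CPM ranges were apart for 3 genes, Fbl, Gar1 and Npm1, all lower in Lung-Ctr, against 9.64% of all genes lower and 4.86% higher. Lung-LMP1 against LMP1 called 0 of the 42, against 10.1% of all genes (6.17% higher and 3.95% lower), with a median of -0.11. The CPM ranges were apart for 6 genes, Ftsj3, Gar1, Nhp2, Pes1, Polr1a and Polr1c, all lower in Lung-LMP1, against 35.5% of all genes lower and 20.4% higher. At an unadjusted p under 0.05 there were 0 of the 42 and 3689 of all genes, and DESeq2 called 0 of the 42 and 19% of all genes. The 3 genes of smallest p were Gar1 at -0.40 (SE 0.2609), Ppan at -0.58 (SE 0.4405) and Nhp2 at -0.41 (SE 0.3184). In the same comparison 7 of 9 epithelial markers were called higher in Lung-LMP1 and 3 of 7 stroma markers tested lower.

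Myc, whose transcripts from the added and the native gene cannot be told apart by counts, was at 819.3, 667.3 and 626.8 CPM in Ctr, 2005 and 1841 CPM in LMP1, 456.6 and 568.2 CPM in the Lung-Ctr pair and 1211, 583.4 and 1068 CPM in the Lung-LMP1 libraries. It rose in LMP1 against Ctr by a log2 fold change of 1.43 (SE 0.2801, edgeR adjusted p = 0.0138). In TMPL against TMP it rose by 1.19 (SE 0.2078, edgeR adjusted p = 0.009875). It had 0.95 (SE 0.2925) in Lung-LMP1 against Lung-Ctr, -0.40 (SE 0.287) in Lung-Ctr against Ctr and -0.88 (SE 0.2802) in Lung-LMP1 against LMP1. None of these passed. In a fit of each gene's log2 level on log2 Myc CPM over the 10 tumour libraries, 10 of the 42 had a positive slope that passed and 0 a negative slope, against 6.3% and 5.99% of all genes, 12.3% together. All 42 slopes were positive, with a median of 0.40 log2 units for each doubling of Myc against -0.01 for all genes. The largest were Rrp9 at 1.003 (SE 0.2109, edgeR adjusted p = 0.02111), Ppan at 0.81, Nolc1 at 0.79, Fbl at 0.78, Nhp2 at 0.77 and Gar1 at 0.77 (SE 0.1345, edgeR adjusted p = 0.01556).

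The calls, not the slopes, were lost without the LMP1 libraries, which had the highest Myc. Without LMP1 replicate 1, without LMP1 replicate 2, without both, and within groups, 0 of the 42 and 0% of all genes were called. The median slopes of the 42 were then 0.52, 0.42, 0.69 and 0.46, with 42, 41, 41 and 42 positive. Without Lung-Ctr replicate 1 or 2, 2 and 5 were called, against 4.07% and 6.94% of all genes, and without Lung-LMP1 replicate 1 or 3, 6 and 6, against 10% and 9.85%. Lineage markers moved with Myc too: 9 of 9 epithelial markers had a negative slope (median -1.03, 2 called) and 7 of 7 stroma markers tested a positive slope (median 1.6, 1 called). Their part in the slopes of the 42 was not tested. Within Ctr, and between the 2 libraries each of LMP1 and Lung-Ctr, the share of counts in the 42 genes was lower where Myc was higher. Only within Lung-LMP1 did that share rise with Myc. Ctr replicate 1 had the most Myc of its group and the smallest share, 0.6163%.

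**Figure D4:**
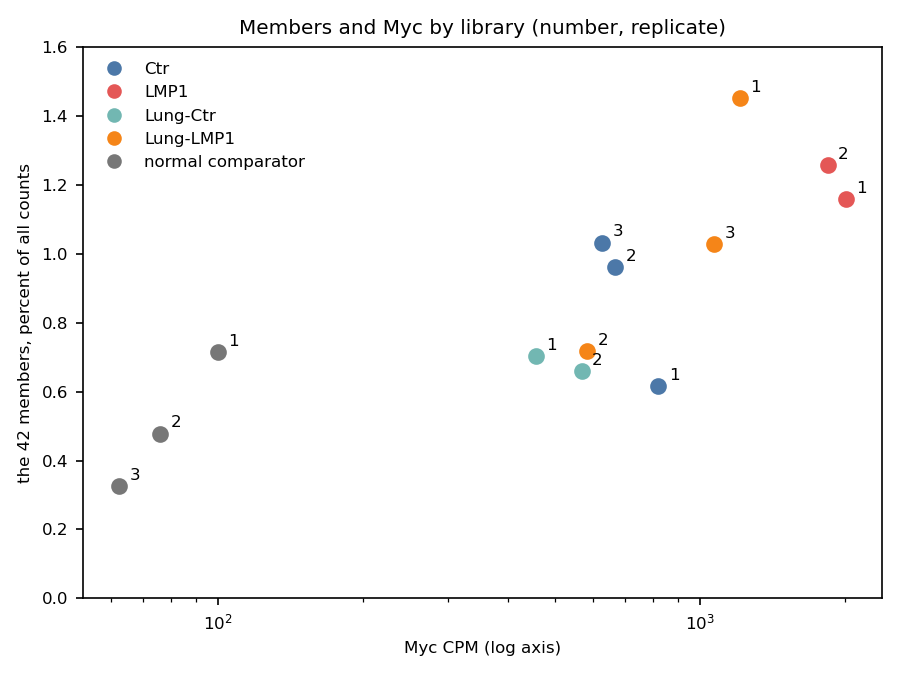
Share of all counts taken by the 42 genes, in percent (vertical axis), against Myc CPM on a log axis in the 10 tumour libraries and the 3 normal comparator columns, each point a library numbered by replicate. LMP1 and Lung-LMP1 replicate 1 lie at the upper right, and Ctr replicate 1 lies low for its 819.3 CPM of Myc.

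Each tumour group was also set against the same 3 normal comparator columns, so these 4 comparisons share their control. Of the 42 genes, 6 were higher and 1 lower in Ctr, against 35.1% of all 14096 genes called, 16.1% higher and 19.0% lower. In LMP1 16 were higher and 0 lower, against 28.2% of all genes, 13.7% higher and 14.5% lower. For Lung-Ctr these were 4 and 0, against 27.4%, 13.2% higher and 14.2% lower. For Lung-LMP1 they were 19 and 0, against 32.0%, 14.6% higher and 17.4% lower. The shares called in Ctr and Lung-Ctr were below the background. The medians of the 42 were 0.58, 1.11, 0.21 and 1.01. Myc was called higher in all 4, at log2 fold changes of 3.065, 4.546, 2.66 and 3.628 in the same order. CPM ranges were apart for 6 genes higher and 1 lower in Ctr (all genes 23.2% and 21.6%), for 39 and 0 in LMP1 (34% and 27.8%), for 11 and 5 in Lung-Ctr (24.3% and 25.9%) and for 16 and 0 in Lung-LMP1 (20.7% and 25.9%).

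Npm1, a nucleolar chaperone, was at 981.7, 709.7 and 570.2 CPM in the comparator and between 1192 and 2212 CPM in every tumour library. It was called higher in all 4 groups, at 1.02, 1.34, 0.75 and 1.32 in the order above. Rrp1b and Wdr12, both of 60S assembly, were also called in all 4, Rrp1b at 1.66, 2.08, 1.46 and 1.86. In Lung-Ctr all 3 calls ended without either Lung-Ctr library, without comparator replicate 2 or 3, and with the replicate block, and that of Npm1 also with no filter on low counts. After the length and GC correction the Lung-Ctr calls of Npm1 and Wdr12 ended, and Wdr12 was no longer called in Ctr. In LMP1 the calls of Rrp1b and Wdr12 ended without either LMP1 library. With the block and that correction together, the calls of Npm1 in Ctr and Wdr12 in LMP1 ended as well. Polr1b was called in 3, at 1.68 in Ctr, 2.11 in LMP1 and 1.90 in Lung-LMP1, and all 3 calls ended without comparator replicate 2 or 3. The Ctr call also ended without Ctr replicate 2 or 3 and with only the groups compared in the fit, the LMP1 call without either LMP1 library, and the Lung-LMP1 call without Lung-LMP1 replicate 1. Nhp2 was the gene lower in Ctr, at -1.19 (SE 0.3287, edgeR adjusted p = 0.01707), with 138.8, 86.32 and 71.27 CPM in the comparator. That call ended after the length and GC correction, where Nhp2 was at -0.34, and without Ctr replicate 1 or 2. Fbl was called in none, with -0.38 in Ctr (SE 0.3133). The comparator libraries themselves differed, with 0.7137, 0.4781 and 0.3253% of counts in the 42 genes and a summed level of 15 proliferation genes of 265.9 to 3479 CPM, whose part in these differences was not tested. Read counts of Npm1 and Fbl were 1.67 to 1.706 and 1.476 to 1.506 times as high in the comparator as in the same-numbered Normal_nasopha libraries, while the median ratio over the 42 was 0.885, so levels of these 2 genes depend on the table and are uncertain.

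In the normal tissues the genes were higher in nasopharynx than in lung. Normal_nasopha against Normal_lung called 32 of 42 higher and 1 lower, against 15.4% of all 15886 genes higher and 15.6% lower, 31.1% together. CPM ranges were apart for 40 higher and 1 lower, against 32.1% and 21% of all genes. The median log2 fold change was 1.35 against 0.13 for all genes. The 42 genes took 0.5908, 0.3943 and 0.2617% of counts in nasopharynx and 0.1391, 0.1806 and 0.1484% in lung, with no overlap. The largest were Grwd1, a WD-repeat protein of the 60S set, at 2.28 (SE 0.5208, edgeR adjusted p = 0.01666), Gnl3, the nucleolar GTPase nucleostemin, at 2.19 (SE 0.3993, edgeR adjusted p = 0.007225), Mybbp1a at 2.02 (SE 0.357, edgeR adjusted p = 0.006413), Utp20, of the processome, at 1.96 (SE 0.3147, edgeR adjusted p = 0.004462), Nop56 at 1.95 (SE 0.4958, edgeR adjusted p = 0.02439) and Ppan at 1.87 (SE 0.3501, edgeR adjusted p = 0.007882).

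Polr1c, which RNA polymerases I and III share, went the other way. It was at 62.45, 65 and 50.99 CPM in nasopharynx and 94.84, 103.6 and 99.47 CPM in lung, a log2 fold change of -0.89 (SE 0.168, edgeR adjusted p = 0.008048). Myc was at 93.65, 71.12 and 57.58 CPM in nasopharynx and 6.654, 15.24 and 7.577 CPM in lung, a log2 fold change of 2.78 (SE 0.3618, edgeR adjusted p = 0.002053). None of 15 proliferation genes was called, with a median of 1.18. Markers of cell types differed between the tissues as well: 9 of 9 stroma markers were lower in nasopharynx (median -4.82), 6 of 6 lung epithelium markers were lower (median -9.61) and 6 of 9 epithelial markers were higher (median 1.8). Their part in the differences of the 42 was not tested. Without Normal_lung replicate 1, 2 and 3, 11, 21 and 9 of the 42 were called, against 18.4%, 19.3% and 16.1% of all genes, with medians of the 42 of 1.27, 1.44 and 1.32.

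Per kilobase of the longest annotated transcript, Npm1 was the most abundant of the 42 in Ctr, at 991.9 CPM per kb, followed by Ncl at 211.1 and Pa2g4 at 129.5. The lowest was Wdr12, at 8.51 CPM per kb. These ranks depend on the transcript used: that of Wdr12 has 10012 bases, and its mean in Ctr was 85.21 CPM. Gar1, with 1271 bases, had a mean of 25.58 CPM there. Which transcripts were expressed was not tested, and the length and GC correction rests on the same transcripts.

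The authors' deposited table for LMP1 against ctrl called 8 of the 42 genes higher and 0 lower, with 27.7% of its genes called. The authors' deposited table for lung-LMP1 against lung-ctrl called 2 higher and 0 lower, with 3.42% of its genes called. For nasopha against lung, the authors' deposited table called 34 higher and 1 lower, with 31% called.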

How the data were processed

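Polyadenylated RNA from 16 organoid libraries was analysed from read counts per gene. Per the submitters' processing notes the authors used STAR, mm10, DESeq2 and DESeq. For versions, counting tool and annotation: not given in the sources used here. Raw counts per gene were deposited by the authors in 5 tables keyed by symbol and 1 table of normal tissues, and the authors' own comparisons, as log2 fold changes with adjusted p-values, stand beside them, per the file headers. A deposited scaled score per library and columns of repeated libraries, 32 columns in all, were not used. Of 27 symbols turned into dates 26 were restored.

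The test was edgeR 4.0.16 (R 4.3.3): filterByExpr, TMM, the robust quasi-likelihood F-test, and Benjamini-Hochberg adjustment over all genes tested, at 0.05. The 10 tumour libraries were fitted together, these with the 3 comparator columns, and the 6 normal libraries alone. TMPL against TMP had the Lung prefix as a term. CPM per library are by total count, and 3 counts are 0.138 to 0.2393 CPM. SE is the absolute log2 fold change over the square root of F. The script was tested on simulated data. Alternatives were DESeq2 1.42.0, RLE size factors, no filter, a length and GC correction (mgcv 1.9.3), a replicate block, fewer libraries and each library left out.

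The genes, lists and roles were chosen with earlier results of these data known. The naming rule takes Myc and 8 fixed genes in every comparison, and the 6 called genes of largest fold in each direction, or the 3 of smallest p where none is called. Not every value of the fixed genes is printed. Genes named in counts, in overlap lists or for their spread across libraries were named after their values were seen. The rule for promoters asked for CACGTG before the start of a leading gene and gave none. The windows and sites printed, and 5 further motifs, were chosen after the values were seen, and all motifs searched are given. Positions and sequences are from GENCODE vM21 and RefSeq on GRCm38.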

Additional observations from a re-analysis of the deposited data

How the results depend on the processing

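RLE size factors and no filter on low counts kept every count of called genes within 1.5 times. With 2 or 3 libraries a group, single libraries moved many counts; the cause was not tested. DESeq2 called 7 genes in Lung-LMP1 against Lung-Ctr, 13 in Ctr and 7 in Lung-Ctr against the comparator. The length and GC correction gave 1 call in LMP1 against Ctr, 7 in TMPL against TMP, 4 for the Myc slope and 2 in Lung-Ctr against the comparator. The replicate numbers did not pair the libraries (correlations of deviations from -0.406 to 0.199). With the replicate block the counts were 1 in LMP1 against Ctr, 6 in TMPL against TMP, 2 for the Myc slope, and 7 in LMP1 and 0 in Lung-Ctr against the comparator. The replicate block with the length and GC correction gave 0 in LMP1 against Ctr, 1 in TMPL against TMP, 0 for the Myc slope, and 4, 10, 0 and 12 in Ctr, LMP1, Lung-Ctr and Lung-LMP1 against the comparator. The Myc slope gave 0 calls without both LMP1 libraries and 0 within groups. Calls over all genes fell with them in the fits that leave out a library of LMP1 or Normal_lung.

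Leaving out 1 library at a time gave 0 to 5 calls in LMP1 against Ctr, 2 to 12 in TMPL against TMP, 0 to 12 for the Myc slope and 9 to 37 between the normal tissues. Against the comparator it gave 4 to 14 in Ctr, 2 to 23 in LMP1, 0 to 7 in Lung-Ctr and 6 to 24 in Lung-LMP1.

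Of 2033 values of single genes under an alternative, 53 changed sign, over 22 results, 36 of them on leaving out a library. In none of these 22 results was the gene called. Under leave-one-out the log2 fold changes ran, in LMP1 against Ctr, from -0.009 to 0.659 for Polr1b and -0.314 to 0.362 for Heatr1. In Lung-Ctr against Ctr they ran from -0.326 to 0.173 for Nop56, -0.584 to 0.076 for Polr1b and -0.502 to 1.801 for Rcl1. In Lung-LMP1 against LMP1 they ran from -0.38 to 0.072 for Fbl, -0.338 to 0.252 for Ncl, -0.167 to 0.17 for Npm1, -0.567 to 0.043 for Nop56, -0.552 to 0.105 for Polr1b, -0.47 to 0.168 for Dkc1 and -0.222 to 0.569 for Heatr1. In the interaction they ran from -0.541 to 0.133 for Nop56, -0.346 to 0.439 for Polr1b, -0.193 to 0.596 for Bop1, -0.251 to 0.47 for Dkc1 and -2.139 to 0.189 for Rcl1. Against the comparator they ran from -0.577 to 0.052 for Fbl and -0.003 to 0.913 for Bop1 in Ctr, and -0.631 to 0.421 for Bop1 in Lung-Ctr. Between the normal tissues Bop1 ran from -0.428 to 0.519.

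With the replicate block, Nop56 was at 0.02 in Lung-Ctr against Ctr, Ncl at -0.079 and Npm1 at -0.008 in Lung-LMP1 against LMP1, and Polr1b at -0.17 in the interaction. With the length and GC correction, Npm1 was at -0.277 in Lung-LMP1 against LMP1 and -0.093 in the interaction, Dkc1 at -0.082 in the interaction, and Fbl at 0.03 in Ctr and Bop1 at 0.489 in Lung-Ctr against the comparator. With the replicate block and that correction, Nop56 was at 0.029 in Lung-Ctr against Ctr, Ncl at -0.134 and Npm1 at -0.338 in Lung-LMP1 against LMP1, Npm1 at -0.22, Polr1b at -0.092 and Dkc1 at -0.254 in the interaction, and Fbl at 0.073 in Ctr and Bop1 at 0.504 in Lung-Ctr against the comparator.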
